A study of Mus musculus with 12 samples.

Results

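The complement and coagulation factors are plasma proteins that circulate mostly as inactive precursors and are activated one after another by proteolysis. Complement marks microbes and damaged cells through C3 and ends in a membrane pore. Coagulation ends in thrombin, the product of F2, which turns fibrinogen into fibrin, and plasmin dissolves the clot. Hepatocytes secrete most of these proteins. The 36 genes described here were a list of names, 16 of complement and 20 of coagulation and fibrinolysis. The rule that picks them uses names and no measured value, but the list was drawn up with earlier results of these data known. All 36 were found by gene name in both tables of 55416 genes. Each was above 0 in at least 1 liver library, and 27 were above 0 in at least 1 intestine library.

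RNA-seq was performed on livers and duodena of male C57BL6/J mice that were 8 weeks old when treatment began. CORT-treated mice received corticosterone, the main glucocorticoid of rodents, subcutaneously at 40 mg/kg once a day for 8 weeks, and Veh mice received the solvent of water, DMSO and Tween-80 alone. Each tissue had 3 CORT and 3 Veh libraries, numbered as biological replicates, 12 libraries in all. The sources do not say whether a liver and a duodenum with the same number came from the same mouse. Values are TPM, relative transcript abundances per transcript length, a unit that allows levels of different genes to be compared within a library. They carry no read counts, so the sequencing depth is unknown and counting error could not be modelled separately. A p-value reflects the spread among libraries, 3 a group, adjusted toward the spread typical of genes at a similar level. Counting error enters it only as part of that spread.

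The treatment and tissue labels were checked first. Fkbp5, a glucocorticoid-induced chaperone, lay at 7.14 to 19.5 TPM in the Veh livers and 221 to 273 TPM in the CORT livers, and at 8.68 to 23.3 and 252 to 379 TPM in the duodena. Albumin (Alb) ran from 32823 to 59476 TPM in liver and from 0.13 to 0.39 TPM in duodenum. Among other cell types in liver, the summed TPM of 6 endothelial markers was 22.6, 48.5 and 29.1 in Veh and 83.8, 97.7 and 113 in CORT. That of 6 Kupffer cell markers was 82.4, 88.3 and 105 in Veh and 65.3, 111 and 205 in CORT. In duodenum, the summed TPM of pancreatic acinar enzymes was 37688 and 30378 in Veh replicates 2 and 3 and 155 to 356 in the other 4 libraries. For duodenum, the test described below was also run with the acinar genes removed. The median log2 fold change of all genes tested moved from -0.012 to -0.040. Calls among the complement and coagulation genes described here stayed at 0. Beyond that refit, how far any of these signals affected the complement and coagulation genes was not tested.

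In liver, 34 of the 36 genes did not pass the test, and the 2 that did, Klkb1 and F11 of the contact system, were both lower in CORT-treated mice. The test was limma on log2(TPM + 1) over the 11699 genes whose Veh or CORT mean reached 1 TPM, and a gene was called when its Benjamini-Hochberg adjusted p was 0.05 or less and its fold change over 1.5. The 2 called genes made up 5.56% of the 36, where 6.92% of all genes tested were called, and lower calls made up 2.01% of all genes. The number of calls among these genes was therefore near the background. A log2 fold change below 0 was found for 26 of the 36 genes (72.2%) against 41.6% of all genes, with a median of -0.13 for the 36 genes and 0.08 for all genes tested. The range ran from -0.96 for Klkb1 to 0.40 for F9. In 8 of the 36 genes (22.2%) the 3 CORT and 3 Veh libraries did not overlap, 7 of them lower and 1 (F9) higher in CORT, where 32.2% of all genes had groups without overlap. An unadjusted p under 0.05 with a fold over 1.5 was reached by 4 of the 36 genes, against 15.5% of all genes. Over all genes the calls were 575 higher and 235 lower. Median-ratio scaling, which sets libraries level by their typical gene, gave 543 higher and 468 lower and moved the median of all genes from 0.08 to -0.003. In bulk liver, fewer hepatocytes and less mRNA per hepatocyte cannot be told apart.

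**Figure D1:**
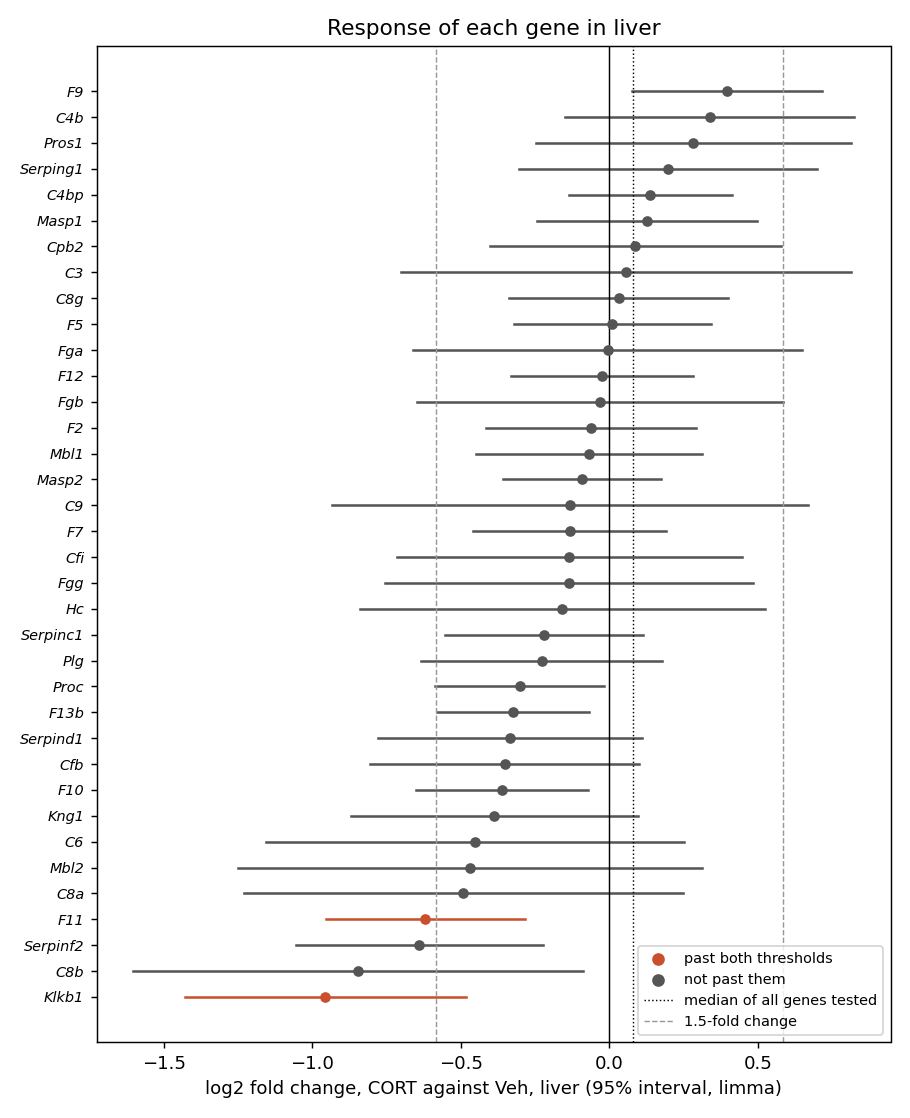
Log2 fold change of CORT against Veh in liver for each of the 36 genes, with its 95% interval from limma (n = 3 and 3). Klkb1 and F11 (red) passed both thresholds, and 26 of the 36 points lie below 0; the dotted line is the median of all 11699 genes tested, and the dashed lines mark a 1.5-fold change.

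For many of the 34 uncalled genes the data limited how large a change could be. The 95% interval of the fold change lay within 1.5-fold in either direction for 12 of them: Mbl1, Masp1, Masp2, C8g, C4bp, F12, F2, F7, F5, F13b, Serpinc1 and Cpb2. It lay within 2-fold for 29, leaving Mbl2, C6, C8a, C8b and Serpinf2 with wider intervals. In the Veh livers the mean levels ran from 20.3 TPM for Pros1 to 3239 TPM for Fga. The 8 most abundant, with means from 1100 to 3239 TPM, were Fga, Fgg, Serpinc1, C3, Fgb, Kng1, F2 and Plg. Another 20 had means from 113 to 782 TPM, and the 8 least abundant had means from 20.3 to 82.2 TPM. The same 5 genes led in both groups, Fga, Fgg, antithrombin (Serpinc1), C3 and Fgb. Fga and Fgg had similar Veh means, at 3239 ± 489 and 3215 ± 497 TPM (SD, n = 3), and their ratio within each library is given below. The 36 genes together made up 2.24 to 2.77% of the TPM in Veh livers and 1.90 to 2.75% in CORT livers. CORT replicate 1 held the lowest value of 14 of the genes and CORT replicate 2 of 9.

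**Figure D2:**
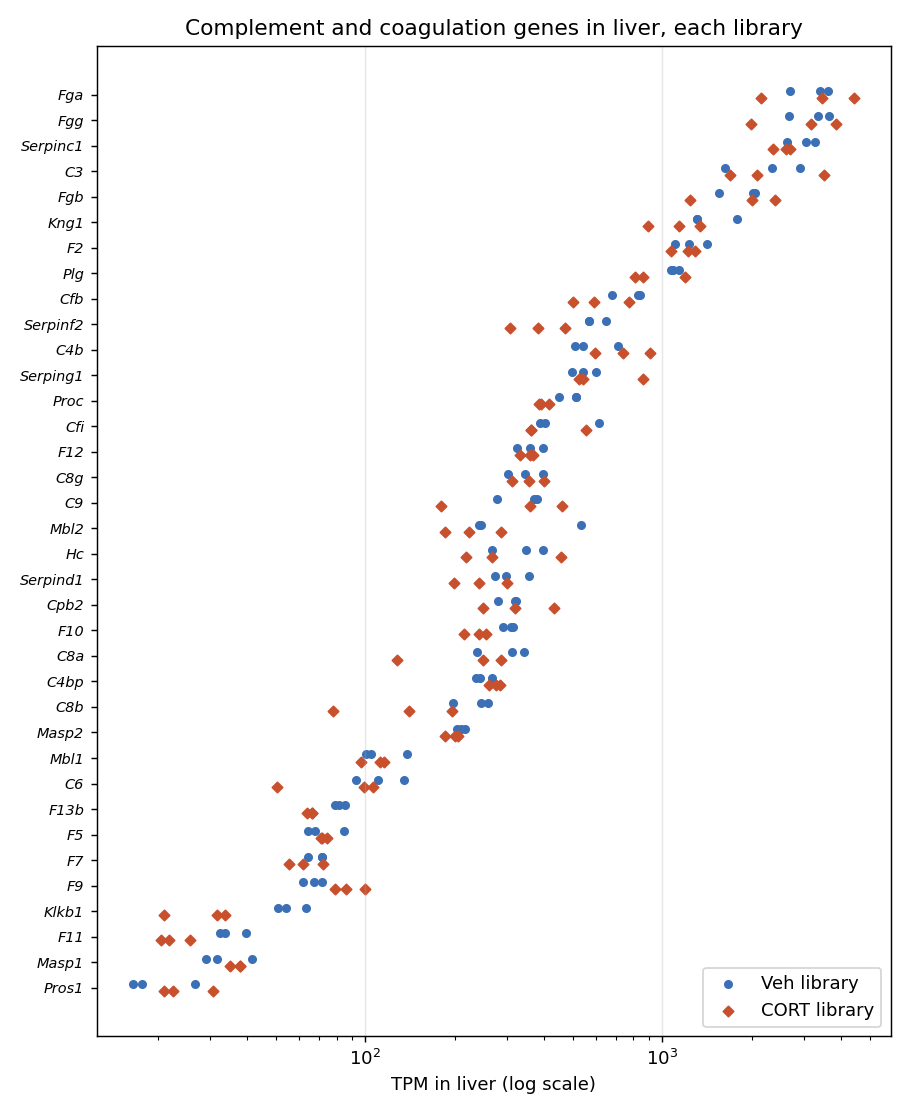
TPM of each of the 36 genes in every liver library, on a log axis, ordered by the Veh mean (circles, 3 Veh libraries; diamonds, 3 CORT libraries). The fibrinogen chains and Serpinc1 are at the top and Pros1 at the bottom, and the red and blue points overlap for 28 of the 36 genes.

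The contact system starts the intrinsic route of coagulation and releases bradykinin. Its members are the proteases F12, plasma prekallikrein (Klkb1) and F11, and the carrier high molecular weight kininogen (Kng1). Klkb1, whose product cleaves kininogen and activates F12, was at 50.7, 63.0 and 53.9 TPM in the Veh livers and at 33.6, 20.9 and 31.8 TPM in the CORT livers. Every CORT library lay below every Veh library. The mean fell from 55.8 ± 6.36 to 28.8 ± 6.83 TPM (SD, n = 3), a log2 fold change of -0.96 (SE 0.20, 95% interval -1.43 to -0.48, adjusted p = 0.0375). F11, the zymogen that activates F9, was at 32.5, 33.8 and 39.8 TPM in Veh and at 25.7, 21.9 and 20.5 TPM in CORT. Again the groups did not overlap, and F11 fell by 0.62 on the log2 scale (SE 0.14, 95% interval -0.95 to -0.28, adjusted p = 0.0478). Both adjusted p-values lay close to the threshold. Leaving out any 1 of the 6 liver libraries, Veh replicates 1, 2 or 3 or CORT replicates 1, 2 or 3, ended both calls. The adjusted p over those 6 fits was 0.0592 to 0.110 for Klkb1 and 0.0662 to 0.153 for F11, while the log2 fold change stayed between -1.08 and -0.75 and between -0.71 and -0.53.

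The other contact genes were not called. F12, which starts the cascade on contact with a negatively charged surface, was at 324, 397 and 359 TPM in Veh and 331, 368 and 360 TPM in CORT, and its groups overlapped fully. Kng1 was at 1312, 1788 and 1306 TPM in Veh and 895, 1137 and 1343 TPM in CORT (log2 fold change -0.39, adjusted p = 0.278). Only the highest CORT library of Kng1 reached the Veh range. Reads of Kng1 may be shared with its near-identical neighbour Kng2, and its value is uncertain to that extent.

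Klkb1 and F11 arose from a common ancestor and are adjacent in the mouse genome, next to each other on chromosome 8 with the same orientation. Of the genes outside the pair, Cyp4v3 beyond Klkb1 was at 83.2, 79.8 and 99.0 TPM in Veh and 103, 82.3 and 67.2 TPM in CORT. Mtnr1a beyond F11 was at 0.47 to 0.50 TPM in Veh and 0.68 to 1.5 TPM in CORT. Neither neighbour showed the lower level that the pair had in every CORT library. The promoters of the pair are shown because these were the only called genes of the 36. They are taken from RefSeq on GRCm38.p6, cover 250 bases before to 50 bases after the start and are written 5′ to 3′ along the gene, whose strand is minus for both. Klkb1 spans chr8:45294786-45295085 and F11 spans chr8:45261982-45262281. Capitals mark matches to TTGCNNAA, a core of the site for C/EBP factors, on either strand, which begin at base -177 in Klkb1 and at base -17 in F11.
Klkb1: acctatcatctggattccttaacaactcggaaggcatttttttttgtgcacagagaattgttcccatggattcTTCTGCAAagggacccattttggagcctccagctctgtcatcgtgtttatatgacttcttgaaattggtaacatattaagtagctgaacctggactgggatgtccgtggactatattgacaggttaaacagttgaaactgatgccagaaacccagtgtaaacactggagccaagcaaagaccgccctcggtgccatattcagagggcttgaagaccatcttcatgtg
F11: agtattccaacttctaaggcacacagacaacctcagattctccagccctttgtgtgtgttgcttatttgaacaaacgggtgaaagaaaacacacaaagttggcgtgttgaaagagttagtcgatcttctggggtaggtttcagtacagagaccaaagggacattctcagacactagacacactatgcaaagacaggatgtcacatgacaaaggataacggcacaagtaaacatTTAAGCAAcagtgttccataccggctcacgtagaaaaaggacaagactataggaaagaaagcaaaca
The 2 promoters hold 1 match each at different positions. TTGCNNAA occurred in 10.8% of 32544 distinct mouse promoters of this length and in 9 of the 28 genes described here that have a promoter in the table (32.1%). The motifs were chosen with the expression values known, and a match is a description of letters and not a binding site.

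The vitamin K-dependent clotting factors are the serine proteases F2 (prothrombin), F7, F9 and F10. Proc and Pros1, which also depend on vitamin K, are given below with the anticoagulants. None of F2, F7, F9 and F10 was called, and these genes did not share a direction. F10, which converts prothrombin to thrombin, was at 309, 314 and 291 TPM in Veh and 215, 241 and 256 TPM in CORT, lower in every CORT library (log2 fold change -0.36, adjusted p = 0.123). F9, the factor missing in haemophilia B, was at 67.0, 71.3 and 61.7 TPM in Veh and 79.0, 86.1 and 99.5 TPM in CORT. It was the only one of the 36 genes that was higher in all 3 CORT libraries than in any Veh library (0.40, 95% interval 0.08 to 0.72, adjusted p = 0.124). F2 lay at 1100, 1415 and 1231 TPM in Veh and 1070, 1218 and 1289 TPM in CORT. These ranges overlapped, and the interval of the log2 fold change, -0.42 to 0.29, leaves room for less than a 1.5-fold change (adjusted p = 0.820). F7, which starts the extrinsic route with tissue factor, was at 64.2 to 71.6 TPM in Veh and 55.4 to 71.9 TPM in CORT.

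Of the non-enzymatic partners, F5, the cofactor of F10, was at 64.4 to 85.0 TPM in Veh and 70.7 to 74.5 TPM in CORT, with a log2 fold change of 0.01. F13b, the carrier subunit of the factor that cross-links fibrin, was at 79.0, 81.9 and 85.7 TPM in Veh and 63.7, 66.3 and 66.3 TPM in CORT. The libraries within each group lay close together and the groups did not overlap, with means of 82.2 ± 3.32 and 65.4 ± 1.48 TPM (SD, n = 3) and a log2 fold change of -0.32 (adjusted p = 0.119).

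Fibrinogen is built of the chains encoded by Fga, Fgb and Fgg in equal number, and the 3 genes lie side by side on mouse chromosome 3. Fga was at 3620, 3410 and 2688 TPM in Veh and 2148, 4438 and 3440 TPM in CORT. Fgb was at 2048, 2017 and 1557 TPM in Veh and 1243, 2402 and 2009 TPM in CORT. Fgg was at 3631, 3350 and 2665 TPM in Veh and 1994, 3851 and 3181 TPM in CORT. The 3 chains kept the same order of libraries within CORT, with replicate 1 lowest and replicate 2 highest, and the Veh libraries lay between these extremes. Log2 fold changes were -0.01 for Fga (95% interval -0.66 to 0.65, adjusted p = 0.992), -0.03 for Fgb (-0.65 to 0.58, adjusted p = 0.950) and -0.14 for Fgg (adjusted p = 0.778). Their sign depended on single libraries: without CORT replicate 1 they were 0.28, 0.24 and 0.13, and the sign of Fga and Fgb also turned without Veh replicate 1 or 2.

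The libraries differed far more in the total of fibrinogen mRNA than in the ratio of the chains. The summed level of the 3 chains ran from 5385 TPM in CORT replicate 1 to 10691 TPM in CORT replicate 2. The ratio of Fga to Fgg was 0.997, 1.02 and 1.01 in Veh and 1.08, 1.15 and 1.08 in CORT, and that of Fgb to Fgg was 0.564, 0.602 and 0.584 in Veh and 0.624, 0.624 and 0.632 in CORT. Both ratios were slightly higher in each CORT library than in any Veh library. They were examined after the values had been seen, and an exact permutation test of 3 against 3 libraries cannot give a p below 0.1. Outside the cluster, Plrg1 next to Fgb lay at 12.2 to 14.3 TPM in Veh and 14.7 to 17.4 TPM in CORT, and Lrat next to Fgg at 1.42 to 4.05 and 1.15 to 2.69 TPM.

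The fibrinogen promoters are printed because the chains moved together between libraries. They come from the same RefSeq table on GRCm38.p6, along each gene: Fga at chr3:83025903-83026202 (plus strand), Fgb at chr3:83049814-83050113 (minus strand) and Fgg at chr3:83007474-83007773 (plus strand). Capitals mark TTGCNNAA (Fga from base -135, Fgb from base -80), CTGGGAA, the core of the interleukin-6 response element known from acute-phase genes (Fgb from base -91, Fgg from base -13), and AGAACA, one arm of the glucocorticoid response element (Fgg from base -183). All were searched on both strands, and none of the matches overlaps another.
Fga: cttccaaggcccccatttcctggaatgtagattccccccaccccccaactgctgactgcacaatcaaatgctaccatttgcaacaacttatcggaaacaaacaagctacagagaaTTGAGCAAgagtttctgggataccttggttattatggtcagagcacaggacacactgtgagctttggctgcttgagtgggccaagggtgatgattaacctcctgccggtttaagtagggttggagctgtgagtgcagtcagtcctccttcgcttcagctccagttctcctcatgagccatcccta
Fgb: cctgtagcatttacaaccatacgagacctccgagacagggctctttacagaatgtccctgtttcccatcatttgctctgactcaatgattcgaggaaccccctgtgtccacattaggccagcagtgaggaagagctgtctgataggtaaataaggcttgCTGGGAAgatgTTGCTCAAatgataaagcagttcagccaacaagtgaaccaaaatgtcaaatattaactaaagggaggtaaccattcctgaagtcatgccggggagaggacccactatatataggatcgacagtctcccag
Fgg: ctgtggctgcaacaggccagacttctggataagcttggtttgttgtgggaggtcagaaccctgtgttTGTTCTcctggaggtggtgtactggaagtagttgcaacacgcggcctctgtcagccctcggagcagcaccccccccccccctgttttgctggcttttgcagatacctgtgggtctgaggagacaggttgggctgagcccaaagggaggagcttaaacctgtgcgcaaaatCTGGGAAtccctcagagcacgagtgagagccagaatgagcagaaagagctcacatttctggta
No motif of the search was matched in all 3 chains. CTGGGAA was found in 11% of the 32544 promoters and in 5 of the 28 genes (17.9%: C6, F9, Fgb, Fgg and Masp2). The arm AGAACA was found in 18.9% of promoters and in 9 of the 28 genes (32.1%). The whole palindrome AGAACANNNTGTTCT was matched in 3 promoters of the table (0.00922%) and in 0 of the 28. Of 2 forms of the HNF4 site, CAAAGGTCA was present in F7 and F9 (7.14% against 0.482%), and CAAAGTCCA in none of the 28 (0.479% of all). The HNF1 site TTAATNATT was present in C4bp, F13b and Hc (10.7% against 1.46%). The TATA box TATAAA, read on the coding strand, was present in C3 and Hc (7.14% against 8.28%).

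**Figure D3:**
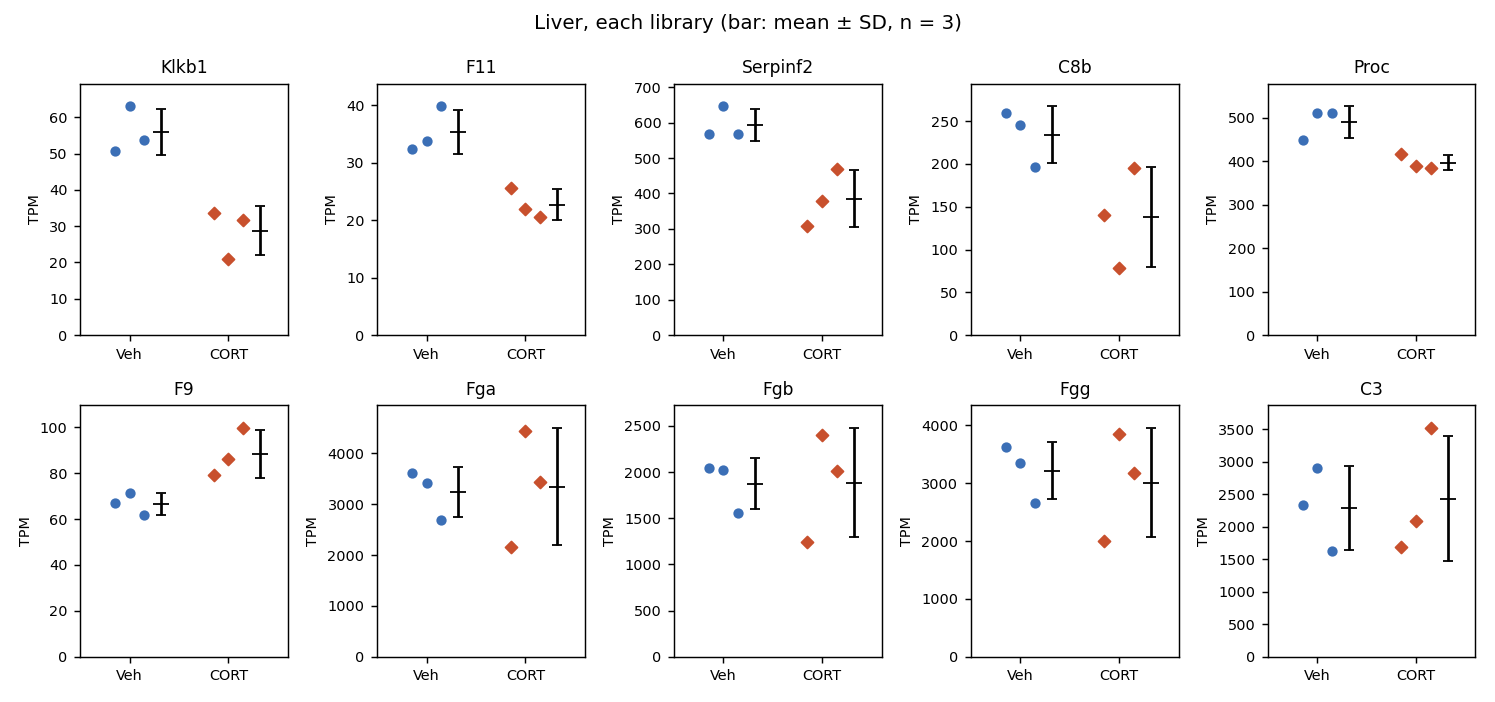
TPM in each liver library for 10 of the genes, with the mean and SD of each group (n = 3; linear axes from 0, each with its own scale). Klkb1, F11, Serpinf2, C8b and Proc are lower and F9 is higher in every CORT library than in any Veh library, while the fibrinogen chains and C3 overlap.

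Clotting is held back by antithrombin (Serpinc1), heparin cofactor II (Serpind1) and the protein C system (Proc and its cofactor Pros1). Protein C, an anticoagulant protease that inactivates F5, was lower in every CORT library: Proc was at 449, 511 and 512 TPM in Veh and 416, 389 and 386 TPM in CORT (log2 fold change -0.30, adjusted p = 0.171). Serpinc1 was at 2640, 3262 and 3058 TPM in Veh and 2364, 2619 and 2688 TPM in CORT (-0.22), an overlap of 1 CORT library with the lowest Veh library. Serpind1 was at 298, 357 and 273 TPM in Veh and 242, 198 and 299.7 TPM in CORT (-0.34). Pros1 ran the other way, at 16.5, 26.8 and 17.7 TPM in Veh and 21.1, 22.5 and 30.6 TPM in CORT (0.28, adjusted p = 0.463), with overlapping groups. None of these 4 genes was called.

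Fibrinolysis was represented by plasminogen (Plg), its inhibitor alpha-2-antiplasmin (Serpinf2) and the carboxypeptidase Cpb2, which protects fibrin from plasmin. Serpinf2 was at 569, 646 and 567 TPM in Veh and 308, 380.1 and 469 TPM in CORT. No CORT library reached the lowest Veh library. Its mean was 594 ± 44.9 TPM in Veh and 386 ± 80.6 TPM in CORT (SD, n = 3), a log2 fold change of -0.64 (SE 0.18, 95% interval -1.06 to -0.22) that missed the threshold (adjusted p = 0.0770). It passed under median-ratio scaling (adjusted p = 0.0416) and without CORT replicate 3 (adjusted p = 0.0479). Plg was at 1138, 1074 and 1089 TPM in Veh and 809, 861 and 1188 TPM in CORT (-0.23), with CORT replicate 3 above all Veh libraries. Cpb2 lay at 319, 321 and 279.6 TPM in Veh and 249.6, 319 and 430.3 TPM in CORT (0.09).

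None of the 16 complement genes was called in liver, where 6.92% of all genes tested were called. For a list of 16, no calls lies near that share. A log2 fold change below 0 was found for 10 of them (62.5%, median -0.11), against 41.6% of all genes tested. The lectin pathway reads sugars on microbes through mannose-binding lectins, whose proteases Masp1 and Masp2 cleave C4 and C2. Mbl2 was at 242, 531 and 245 TPM in Veh and 224, 185 and 285 TPM in CORT, so that its log2 fold change of -0.47 (adjusted p = 0.417) rested on the high Veh replicate 2. Mbl1 lay at 101 to 138 TPM in Veh and 96.5 to 116 TPM in CORT, and Masp1 at 29.1 to 41.4 and 34.9 to 37.9 TPM. Masp2 was steady at 203, 210.2 and 217 TPM in Veh and 186, 206 and 199.9 TPM in CORT.

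C3, on which all complement pathways converge, was at 2335, 2910 and 1631 TPM in Veh and 1695, 2085 and 3519 TPM in CORT. Spread within each group, 2292 ± 641 and 2433 ± 960 TPM (SD, n = 3), exceeded the difference of the means. The log2 fold change of 0.06 had a 95% interval of -0.70 to 0.81 (adjusted p = 0.930), and its sign turned under median-ratio scaling (-0.04) and without Veh replicate 3 (-0.17) or CORT replicate 3 (-0.25). C4b, the shared component of the classical and lectin pathways, was at 712, 508 and 542 TPM in Veh and 592, 735 and 909 TPM in CORT (0.34, adjusted p = 0.351). Reads of C4b may be split with its close copy C4a. Cfb, the protease of the alternative pathway, was at 826, 841 and 679 TPM in Veh and 589, 499 and 772 TPM in CORT (-0.35, adjusted p = 0.293). For all 3 genes the groups overlapped, and CORT replicate 3 held the highest CORT value. It also did so for coagulation genes such as F2, F10 and Plg, but not for the fibrinogen chains.

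The terminal components assemble into the membrane attack complex, C5 (Hc) first and then C6, C7, C8 and C9. C7 is not among the 36 genes. C8b was at 259.8, 245 and 197 TPM in Veh and 140.2, 78.1 and 195 TPM in CORT, so the groups were separated by a margin of less than 2 TPM. Its log2 fold change of -0.85 was the second lowest of the 36 genes but came with a wide interval (-1.6 to -0.09, adjusted p = 0.156). C8a, the neighbouring gene for the chain that pairs with it, was at 343, 311 and 238 TPM in Veh and 249, 128 and 286 TPM in CORT (-0.49, adjusted p = 0.367). The ratio of C8b to C8a was 0.758, 0.789 and 0.827 in Veh and 0.564, 0.612 and 0.683 in CORT, without overlap, and was likewise examined after the values had been seen. C8g, the third chain of C8, lies on another chromosome and was at 303 to 395 TPM in Veh and 311 to 399 TPM in CORT. C6 was at 109.9, 135 and 93.2 TPM in Veh and 106, 50.6 and 99.3 TPM in CORT (-0.45, adjusted p = 0.382). Hc lay at 268 to 397 TPM in Veh and 219 to 455 TPM in CORT, and C9 at 279 to 378 and 179 to 458 TPM. In 5 of these 6 genes, with C8g as the exception, CORT replicate 2 was the lowest of all 6 libraries.

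Of the complement inhibitors, Cfi, the protease that degrades C3b and C4b, was at 389 to 611 TPM in Veh and 360.0 to 555 TPM in CORT. C4bp, its cofactor for C4b, was at 243, 266 and 236 TPM in Veh and 260.1, 283 and 276 TPM in CORT (0.14). Serping1, the C1 inhibitor that also restrains plasma kallikrein and F12, was at 542, 598 and 498 TPM in Veh and 525, 539 and 858 TPM in CORT (0.20). Both groups overlapped in each of the 3 genes, and the mean of Serping1 in CORT was raised by replicate 3 alone.

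In the duodenum the 36 genes were low or listed at 0. Of the 36, 35 had a higher level in every liver library than in every duodenum library, and Pros1 was the exception. These levels come from tables quantified separately and were not tested. At 0 in all 6 duodenum libraries were listed 9 genes: Mbl1, Masp2, C8a, C9, Kng1, F7 and the 3 fibrinogen chains. Another 14 were above 0 but under 1 TPM in both group means, and 13 reached 1 TPM in at least 1 group. The 36 genes together held 190.1 to 261 TPM per duodenum library, against 18732 to 27633 TPM per liver library.

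**Figure D4:**
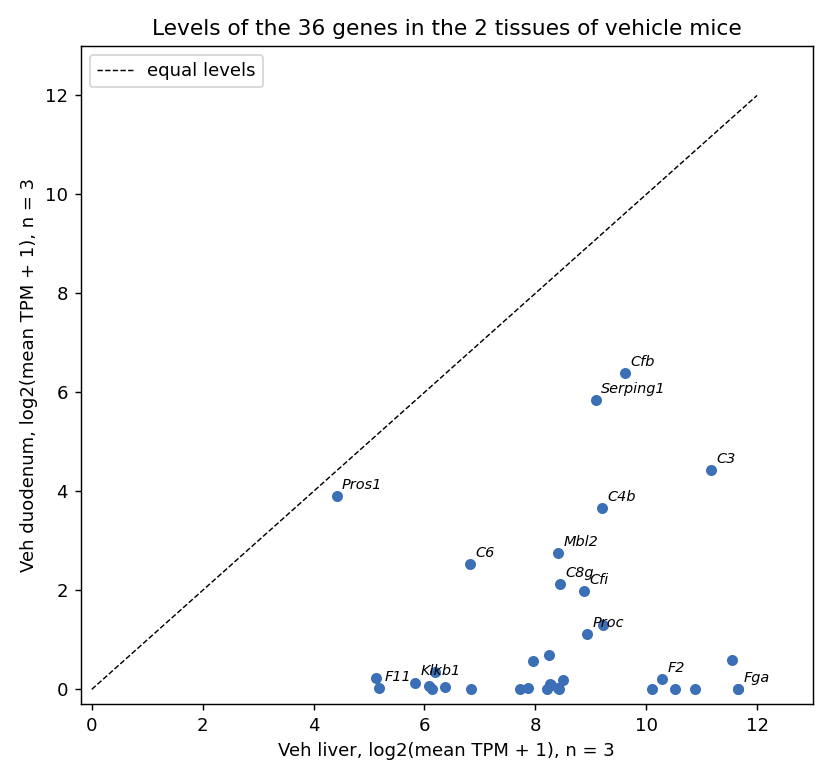
Mean level of each of the 36 genes in Veh liver (horizontal) and Veh duodenum (vertical), as log2(mean TPM + 1), n = 3 libraries a tissue; the dashed line marks equal levels. Pros1 lies near the line, Cfb and Serping1 are the highest in duodenum, and the fibrinogen chains lie on the axis at 0.

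None of the 13 genes that passed the filter in duodenum was called, where 2.15% of the 13607 genes tested were. Of the 13, 3 had a log2 fold change below 0 (51.5% of all genes tested), 1 had groups without overlap (26.4% of all genes) and 1 reached an unadjusted p under 0.05 with a fold over 1.5 (10.3% of all genes). In both of the last counts the gene was Proc. Under a filter that lets a gene pass through either group, those near 1 TPM can enter because 1 group is high, and these counts describe only the genes that passed.

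Cfb, which gut epithelium is known to make, was the highest of the 36 genes in duodenum, at 101, 79.2 and 69.6 TPM in Veh and 95.9, 74.2 and 121 TPM in CORT (0.21, adjusted p = 0.630). Serping1 was at 38.2, 69.3 and 61.3 TPM in Veh and 39.9, 53.3 and 52.9 TPM in CORT (-0.17, adjusted p = 0.723). C3 was at 16.7, 31.1 and 14.2 TPM in Veh and 8.64, 25.8 and 22.3 TPM in CORT (-0.17, adjusted p = 0.860), and its sign turned without Veh replicate 2 (0.15) or CORT replicate 1 (0.29). These 3 genes overlapped between the groups. Pros1 was at 10.6, 17.3 and 13.8 TPM in Veh and 12.2, 18.1 and 16.2 TPM in CORT, and C4b at 9.20, 12.6 and 13.2 and at 12.5, 17.2 and 14.3 TPM. C8g was at 5.57, 1.61 and 2.91 TPM in Veh and 5.80, 3.89 and 8.25 TPM in CORT (0.73, adjusted p = 0.340). Mbl2 was at 12.7, 2.58 and 1.95 TPM in Veh and 1.62, 1.6 and 6.32 TPM in CORT (-0.51, adjusted p = 0.700), and without Veh replicate 1 the value was 0.18. C8g varied among the libraries of both groups, and Mbl2 had 1 high library in each group.

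Proc was at 0.91, 1.46 and 1.12 TPM in the Veh duodena and 2.12, 1.87 and 2.95 TPM in the CORT duodena, higher in every CORT library (0.61, SE 0.20, adjusted p = 0.176). F10 was at 0.48, 0.95 and 0.40 TPM in Veh and 2.57, 0.56 and 2.00 TPM in CORT (0.68, adjusted p = 0.335), where CORT replicate 2 lay within the Veh range. Serpinc1 was at 0.30 to 0.73 TPM in Veh and 0.40 to 2.09 TPM in CORT. C6, Cfi and Serpinf2, the remaining genes that passed, ranged from 1.26 to 6.79 TPM over all 6 libraries with log2 fold changes of 0.16, 0.42 and 0.15.

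Whether CORT acted differently in the 2 tissues was tested with an interaction term over all 12 libraries. The effect differed for 2 of the 36 genes, against 3.61% of the 14806 genes tested. For Klkb1 the log2 fold change in liver minus that in duodenum was -1.02 (adjusted p = 0.0417). In duodenum Klkb1 was listed at 0.08 to 0.12 TPM in Veh and 0.10 to 0.24 TPM in CORT, so on this scale the difference is almost wholly the liver change. For Proc the difference was -0.91 (adjusted p = 0.0319), with lower values in CORT livers and higher values in CORT duodena, neither of them called within its tissue. Both differences were sensitive to single libraries: the call held in 3 of 12 fits that left out 1 library for Klkb1 and in 4 of 12 for Proc.

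A further 73 complement and coagulation genes outside the 36 were listed, among them components made by macrophages, endothelium and platelets, receptors and membrane-bound regulators. In liver 49 of them were tested and 4 were called, 3 higher and 1 lower, a share of 8.16% that lies near the 6.92% of all liver genes tested. Serpine2, protease nexin-1, which inhibits thrombin and urokinase, was at 8.80, 4.42 and 4.86 TPM in Veh and 84.0, 38.5 and 103 TPM in CORT. It rose by 3.38 on the log2 scale (SE 0.39, adjusted p = 0.00626), with the lowest CORT library above all Veh libraries. Serpina5, the protein C inhibitor, was at 0.07, 0.00 and 0.18 TPM in Veh and 4.45, 4.40 and 12.3 TPM in CORT, a rise of 2.76 on the log2 scale from under 1 TPM in each Veh library (SE 0.36, adjusted p = 0.00907). Serpina5 passed the filter through its CORT mean alone, so it could only have been called as higher. Mcfd2, which with Lman1 carries F5 and F8 out of the endoplasmic reticulum, rose from 138, 162 and 115 TPM to 217, 254 and 233 TPM (0.77, SE 0.16, adjusted p = 0.0357). Cfhr3, of the factor H-related family whose close copies can share reads, fell from 11.6, 8.50 and 9.87 TPM to 6.03, 5.62 and 3.82 TPM (-0.85, SE 0.19, adjusted p = 0.0455). The calls of Serpine2 and Serpina5 held in all 6 fits that left out 1 library, that of Mcfd2 in 1 and that of Cfhr3 in 0.

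In duodenum 47 of the 73 genes were tested and 2 were called, both higher, a share of 4.26% where 2.15% of all duodenum genes tested were called. S100a10, a surface partner of annexin A2 that binds plasminogen, rose from 578, 494 and 498 TPM to 1036, 919 and 841 TPM (0.83, SE 0.14, adjusted p = 0.0392). Cd59b, a membrane inhibitor of the terminal complex with the close copy Cd59a, rose from 3.00, 2.71 and 2.79 TPM to 5.51, 4.86 and 6.05 TPM (0.75, SE 0.14, adjusted p = 0.0469). Both calls were lost when any 1 of the 6 duodenum libraries was left out. Mcfd2 was at 164, 134 and 152 TPM in Veh and 258, 246 and 217 TPM in CORT (0.67, adjusted p = 0.0598). Protein Z (Proz), a cofactor for inhibition of F10, was at 13.3, 10.1 and 10.9 TPM in Veh and 7.42, 5.71 and 6.07 TPM in CORT (-0.75, adjusted p = 0.0654). These last 2 genes did not pass, although their groups did not overlap. Serpina5 was listed at 0 in every duodenum library, and Serpine2 was at 1.39 to 2.69 TPM in Veh and 1.24 to 2.97 TPM in CORT. The difference between the tissues was 3.38 for Serpine2 (adjusted p = 0.00604) and 2.76 for Serpina5 (adjusted p = 0.00537).

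**Figure D5:**
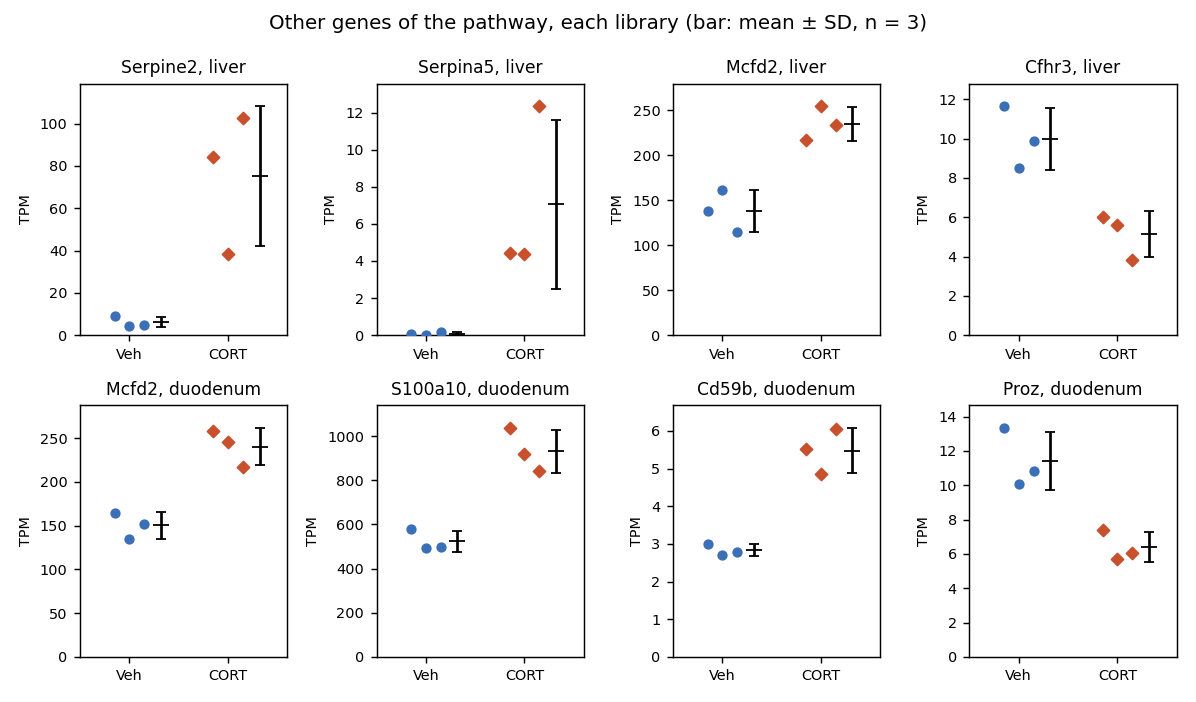
TPM in each library for complement and coagulation genes outside the 36, with the mean and SD of each group (n = 3; linear axes from 0, each with its own scale). Serpine2, Serpina5 and Mcfd2 are higher and Cfhr3 lower in the CORT livers, and in the CORT duodena Mcfd2, S100a10 and Cd59b are higher and Proz is lower; Mcfd2 and Proz did not pass the test in duodenum.

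Levels of factors known to control hepatic secretory genes were read from a list of 19, all tested in liver. Of these 4 were called (21.1%, against 6.92% of all liver genes tested), and 3 of them are described. This list, too, was drawn up with earlier results of these data known. Hnf4a, a nuclear receptor known to drive clotting factor genes, rose from 145, 161 and 144 TPM to 279, 233 and 316 TPM (0.86, adjusted p = 0.0211). Il6ra, the interleukin-6 receptor that conveys the acute-phase signal, rose from 8.36, 9.14 and 15.8 TPM to 32.2, 24.6 and 34.2 TPM (1.41, adjusted p = 0.0232). Dbp, a clock-driven PAR bZIP factor, fell from 63.0, 121 and 88.5 TPM to 17.5, 21.8 and 8.94 TPM (-2.46, adjusted p = 0.0120). The call of Dbp held in all 6 fits that left out 1 library, that of Hnf4a in 3 and of Il6ra in 2. In duodenum 18 were tested and Ppara alone was called (5.56%, against 2.15% of all duodenum genes tested). Ppara rose from 10.2, 9.04 and 13.6 TPM to 26.4, 21.8 and 31.4 TPM (1.21, adjusted p = 0.0329), a call lost without any 1 library. Hnf4a was at 220, 202 and 190.2 TPM in the Veh duodena and 164, 191 and 173 TPM in the CORT duodena, and its effect differed between the tissues by 1.08 (adjusted p = 0.00886).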

How the data were processed

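Total RNA of 50 mg of liver or duodenum was made into TruSeq libraries by the authors, with read trimming by SeqPrep and Sickle, alignment by HISAT2 in orientation mode, and StringTie and RSEM for assembly and quantification. The submitters' processing notes name the build GRCm39, and the annotation release and tool versions are not given in the sources used here. The authors deposited TPM for each gene in every library, with no pooled columns. TPM is relative to the other transcripts of a library, and because it keeps no read numbers, no counting error, detection limit or count model such as the study's own could be applied.

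Liver and duodenum were fitted separately on log2(TPM + 1), with treatment as the only term, using lmFit and eBayes with trend of limma 3.58.1 (R 4.3.3). Genes entered where the Veh or CORT mean reached 1 TPM. All adjusted p-values are limma's after Benjamini-Hochberg adjustment over all genes tested. Genes were called at a fold change over 1.5 if the adjusted p was at most 0.05. The tissue difference was a contrast of 4 group means over 12 libraries, for genes at 1 TPM or more in any group, with an adjusted p of 0.05 or less. Fold changes on this scale understate those of low genes. The fits were run on simulated data with no changes or with large ones. Those runs cannot tell how well changes as small as most of those given here are found.

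The 36 genes and the other lists were chosen with earlier results of these data known. Named were called genes, the 3 highest and 3 lowest log2 fold changes per tissue, C3, F2, Fgb, the fibrinogen chains, genes differing between tissues, called genes of the other lists, and Fkbp5. Of the called genes of the other lists, 1 is not reported here. Other values, the ratios, the neighbours and the motifs were added after values had been seen. Gene order and promoters are from RefSeq on GRCm38.p6, where 28 of the 36 genes had a promoter, and no coordinates were taken from the tables. Alternatives were a pseudocount of 0.1, no filter, the replicate number as a block, median-ratio scaling, no fold limit, unadjusted p-values, eBayes without trend, each library left out, and removal of acinar genes in duodenum.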

Additional observations from a re-analysis of the deposited data

Results flagged for a closer look

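The effect of CORT differed between liver and duodenum, by the interaction test over 12 libraries, for 5 of the genes named above. As liver minus duodenum on the log2 scale, the difference was -1.02 for Klkb1 (adjusted p = 0.0417) and -0.91 for Proc (adjusted p = 0.0319). It was 2.76 for Serpina5 (adjusted p = 0.00537), 3.38 for Serpine2 (adjusted p = 0.00604) and 1.08 for Hnf4a (adjusted p = 0.00886). Klkb1 and Serpina5 lay under 1 TPM in every duodenum library, so their differences rest on liver. Serpina5 entered this test through its CORT liver mean alone, so its difference could only have been positive. The calls of Serpina5, Serpine2 and Hnf4a held in all 12 fits that left out 1 library.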

How the results depend on the processing

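In liver, the 2 calls among the 36 genes became 0 without the filter on low values, 0 with the replicate block, 4 with unadjusted p-values, 1 with eBayes without trend and 0 to 1 when a library was left out. The 810 calls over all liver genes became 283, 307 and 1808 under the first 3 settings and 247 to 831 with a library left out, and the 4 calls among the other pathway genes became 2, 2 and 10, and 2 to 6. Under median-ratio scaling Serpinf2 was called in liver in addition to Klkb1 and F11. In duodenum, the 0 calls among the 36 genes became 1 with unadjusted p-values, and stayed at 0 to 0 with a library left out. Over all duodenum genes, 292 calls became 52 without the filter, 62 with the block, 1395 with unadjusted p-values and 66 to 237 with a library left out, and the 2 calls among the other pathway genes became 0, 0, 5 and 0 to 0. The 2 genes that differed between tissues became 1 with a pseudocount of 0.1, 1 without the filter, 0 with the block, 7 with unadjusted p-values and 0 to 2 with a library left out. Fewer libraries or more genes enter these fits by construction, and beyond that the cause was not tested.

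Direction turned for some genes that were not called: C3 in liver was -0.0402 under median-ratio scaling. With a library left out, log2 fold changes in liver ranged from -0.25 to 0.28 for C3, -0.15 to 0.0306 for F2, -0.24 to 0.28 for Fga, -0.23 to 0.24 for Fgb and -0.34 to 0.13 for Fgg, and in duodenum from -1.01 to 0.18 for Mbl2 and -0.45 to 0.29 for C3. Over every alternative the adjusted p ran from 0.0260 to 0.110 for Klkb1 and from 0.0466 to 0.153 for F11, and that of Serpinf2 from 0.0416 to 0.209. Of 194 values for single genes under the settings that kept all libraries, 166 kept their direction and their side of the threshold. The labels do not say that replicate numbers pair the samples. The deviations of same-numbered CORT and Veh libraries correlated at 0.04, -0.01 and -0.12 across liver genes and 0.05, 0.07 and -0.004 across duodenum genes. Not every library correlated best with its own number. Deviations from the mean of 3 libraries depend on one another, so these values cannot settle whether a number marks a shared batch. Pairing of liver with duodenum was not tested. TPM keep no depth, so how far low levels in duodenum reflect few reads is unknown.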
